A study of Homo sapiens with 6 samples.

Results

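Cystine uptake and glutathione synthesis were followed through 10 genes in 786-O cells, a human kidney cancer line of the clear cell type with no working VHL. The genes were chosen by name for their roles, with earlier results of these data known. All 10 were found by symbol among the 25987 genes of the table and passed the filter on low counts. The copper group was 3 cultures adapted to copper. The control group was 3 cultures handled alike, with serum prepared in the same way but without copper. In both groups the labels give the genotype as wild type and the medium contained serum. In the copper group the serum had first been incubated with CuSO4. The dose is 30 uM in the series text, and by label it is 30, 31 and 32 uM for copper replicates 1, 2 and 3, which were taken as 1 group. The labels do not say how long the cells were adapted or whether the cultures were adapted separately, so the p-values measure the spread between these samples, which may be partly technical. The comparison asks how the RNA of genes that make and maintain glutathione differs after adaptation to copper.

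Glutathione is the main small thiol of the cell. It binds copper(I) ions, supplies electrons to peroxidases and glutaredoxins, and is assembled in the cytosol from glutamate, cysteine and glycine. Cysteine often limits the synthesis. It enters many cancer cells as cystine, the oxidised dimer, through an exchanger for glutamate. The first step joins glutamate to cysteine and is slowed by glutathione itself, and several genes of the pathway are known targets of the oxidative stress factor NRF2 and of ATF4, a factor that responds to amino acid shortage.

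Library totals ran from 16301772 to 18189469 counts for the copper cultures, and for the controls from 19219090 to 25079913. Replicate 3 stood apart from replicates 1 and 2 along the first principal component of log2 CPM (57.9% of the variance) in both groups, and farther in copper (41.2 against -17.6 and -17.5) than in control (17.6 against -11.7 and -12.1). CPM is the usual depth-scaled unit, a gene's counts relative to the scaled total of its library. Of 8 markers of a renal carcinoma line, PAX8, PAX2, KRT8, KRT18, VIM and EPAS1 were present in every library, CA9 was under 1 CPM in all 6 and NDUFA4L2 reached at most 1.35 CPM. The 8 summed to between 4001 and 5026 CPM in copper and between 4297 and 4497 CPM in control. Of 7 markers of leukocytes, endothelium and fibroblasts, 6 were under 1 CPM in all libraries. The other, the collagen gene COL1A1, ranged from 2.07 to 4.48 CPM in copper and from 3.90 to 8.68 CPM in control. The 7 summed to at most 4.80 and 8.92 CPM. The part of either list in the results was not tested. The metal-binding metallothionein MT2A, a common sign of copper exposure, was at 631, 724 and 803 CPM in the copper libraries against 328, 349 and 351 CPM in the controls. MT1X, of the same family, was at 33.1, 43.0 and 43.5 CPM against 7.60, 8.24 and 13.6 CPM. Neither gene overlapped between groups, and every copper library lay above every control in 5.45% of all tested genes. Neither had an adjusted p under 0.05 by edgeR, at 0.0843 for MT2A and 0.1002 for MT1X. With the replicate number as a block these were 0.00516 and 0.00236, in a fit that called 0.17% of all tested genes.

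All 10 genes had a positive log2 fold change, and none passed the test. By edgeR's quasi-likelihood test with Benjamini-Hochberg adjustment over all 12944 tested genes, 0 of the 10 were called at an adjusted p under 0.05, as were 0 of all genes (0%). The median log2 fold change was 0.22 for the 10 genes and 0.0052 for all tested genes. At an unadjusted p under 0.05 the fit held 1 of the 10, against 3.52% of all genes, and DESeq2 called 0 of the 10 against 0.221% of all genes. With the replicate number as a block, 0 of the 10 were called against 0.17% of all genes, and 5 had an unadjusted p under 0.05 against 8.41%. In bulk RNA, fewer cells with a transcript and less of it per cell cannot be told apart. The direction of the 10 was in view when they were chosen, and 51.4% of all tested genes had a positive value. The estimates ran from 0.11 for SLC3A2 to 0.46 for GCLM, and their order and replicate pattern follow by role.

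**Figure D1:**
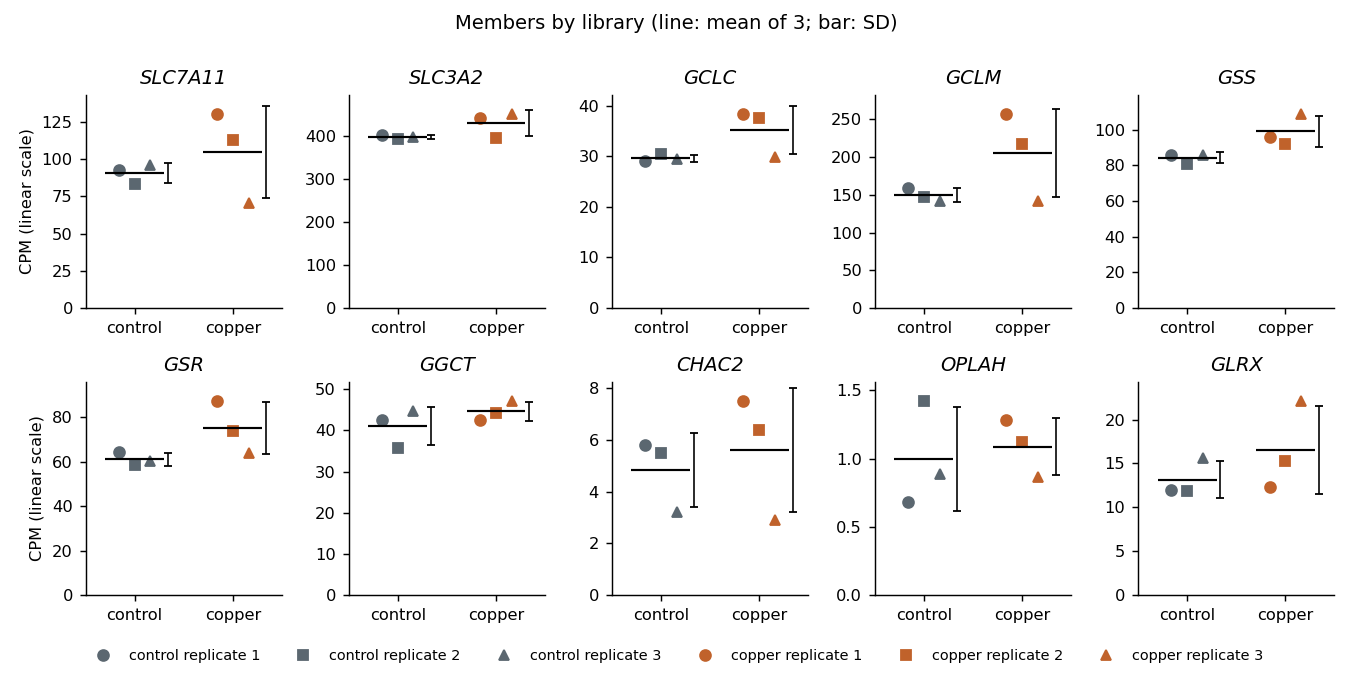
CPM of each of the 10 genes (vertical axis, linear, from 0) in the 3 control (grey) and 3 copper (orange) libraries. The shape of a point gives the replicate, the line the mean and the bar the SD. In SLC7A11, GCLC, GCLM, GSR and CHAC2 the copper circle and square lie above every other library while the copper triangle lies among or below the controls.

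SLC7A11 (Entrez 23657; chromosome 4, 138164097 to 138242349, GRCh38, minus strand) encodes xCT, the light chain of the cystine and glutamate exchanger, and carries the transport. It stood at 130, 113 and 70.9 CPM in copper replicates 1, 2 and 3 and at 92.8, 83.2 and 96.3 CPM in control. Copper replicates 1 and 2 lay above all controls and copper replicate 3 below all of them, so the groups overlapped. The means were 105 ± 30.6 CPM in copper and 90.7 ± 6.76 CPM in control (SD, n = 3). Copper over control came to 0.21 on the log2 scale (SE 0.21, 95% interval -0.28 to 0.70; adjusted p by edgeR 1.00). The antisense gene SLC7A11-AS1 overlaps it and had 13 to 27 counts a library, against 1313 to 2306 for SLC7A11. Whether the counting used strand is not given in the sources used here.

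SLC3A2 (Entrez 6520; chromosome 11, 62856109 to 62888860, plus strand) encodes 4F2hc, also called CD98, the heavy chain that holds xCT and other amino acid transporters at the plasma membrane. It stood at 443, 396 and 451 CPM in copper and at 401, 393 and 398 CPM in control. The controls lay close together, and only copper replicate 2 fell within their range. The log2 fold change was 0.11 (SE 0.09, 95% interval -0.10 to 0.33; adjusted p by edgeR 1.00). Both chains of the exchanger therefore had small estimates, and in copper replicate 3 they lay on opposite sides of the controls.

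Glutamate-cysteine ligase catalyses the first and rate-limiting step. GCLM (Entrez 2730; chromosome 1, 93885200 to 93909598, minus strand) encodes its modifier subunit, which makes the enzyme more active and less sensitive to inhibition by glutathione. It stood at 257, 217 and 142 CPM in copper and at 160, 147 and 142 CPM in control. Copper replicates 1 and 2 were the highest of the 6 libraries, and copper replicate 3 differed from control replicate 3 by 0.0023 on the log2 scale. GCLM had the largest log2 fold change of the 10 genes, 0.46 (SE 0.20, 95% interval -0.01 to 0.93; adjusted p by edgeR 1.00, unadjusted p 0.0550).

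GCLC (Entrez 2729; chromosome 6, 53497341 to 53545101, minus strand) encodes the catalytic subunit. It stood at 38.3, 37.6 and 29.8 CPM in copper and at 29, 30.4 and 29.5 CPM in control. As for GCLM, the first pair of copper libraries lay above the controls and the third lay within them. For GCLC the log2 fold change was 0.25 (SE 0.12, 95% interval -0.03 to 0.53; adjusted p by edgeR 1.00). Per length, GCLM RNA was 8.73, 7.52 and 6.19 times that of GCLC in copper and 7.16, 6.29 and 6.25 times in control. The groups overlapped, with an exact two-sided permutation p of 0.40 where 3 against 3 libraries cannot give less than 0.10.

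Promoter stretches are shown for GCLM, GCLC and SLC3A2, where a match to a motif named below ended before a start site. GCLM and GCLC encode both subunits of the ligase and shared the pattern above, while SLC3A2 did not. RefSeq windows (GRCh38.p14) from 250 bases before to 50 after a start site were found for 5 of the 10 genes, SLC3A2, GCLC, GCLM, CHAC2 and GLRX. They were searched on both strands for the core of the antioxidant response element bound by NRF2 (TGACNNNGC), an element bound by ATF4 (TGATGNAA) and a TATA box (TATAAA). Each stretch below holds 120 bases, written 5′ to 3′ on the gene's strand and ending at the match, which is in capitals.
GCLM, chr1:93909456-93909575, minus strand: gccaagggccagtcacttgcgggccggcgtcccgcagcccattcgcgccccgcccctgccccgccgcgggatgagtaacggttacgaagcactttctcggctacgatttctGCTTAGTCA
SLC3A2, chr11:62881551-62881670, plus strand: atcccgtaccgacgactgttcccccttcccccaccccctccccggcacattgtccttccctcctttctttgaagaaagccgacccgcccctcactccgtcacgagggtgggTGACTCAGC
GCLC, chr6:53545125-53545244, minus strand: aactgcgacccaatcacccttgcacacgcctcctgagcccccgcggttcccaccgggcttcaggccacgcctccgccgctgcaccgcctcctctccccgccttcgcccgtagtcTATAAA
In GCLM the capitals are the antioxidant core read from the opposite strand (TGACTAAGC there), at bases -34 to -26 from the start. In SLC3A2 they are the same core at -37 to -29, in 1 of its 3 start windows, and that window also held the ATF4 element. In GCLC they are the TATA box at -29 to -24, and neither of the other motifs was found in its window. The CHAC2 and GLRX windows held none of the 3. The GCLM start used here is base 93909430, so its stretch lies inside the gene span given above, as does that of SLC3A2. Of 35116 windows, 13.3% held the antioxidant core, 3.62% the ATF4 element and 11.5% the TATA box, so a match is a description of the letters only.

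GSS (Entrez 2937; chromosome 20, 34928433 to 34955635, minus strand) encodes glutathione synthetase, which adds glycine in the second step. It stood at 96.1, 92.2 and 109 CPM in copper and at 86.0, 80.9 and 86.0 CPM in control. It was the only one of the 10 whose groups did not overlap. Every copper library lay above every control in 5.45% of all tested genes, and below in 5.35%. This was a log2 fold change of 0.23 (SE 0.10, 95% interval 0.0033 to 0.46; unadjusted p 0.0475, adjusted p by edgeR 1.00), a fold of 1.17. Unlike the ligase subunits, GSS was highest in copper replicate 3.

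GSR (Entrez 2936; chromosome 8, 30678063 to 30727999, minus strand) encodes glutathione reductase, which returns oxidised glutathione to the reduced form with NADPH. It stood at 87.3, 73.9 and 64.0 CPM in copper and at 64.2, 58.6 and 60.4 CPM in control. Copper replicates 1 and 2 lay above the controls, and copper replicate 3 lay just below control replicate 1. For GSR the log2 fold change was 0.30 (SE 0.13, 95% interval -0.0004 to 0.60; adjusted p by edgeR 1.00).

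GLRX (Entrez 2745; chromosome 5, 95813849 to 95822873, minus strand) encodes cytosolic glutaredoxin 1, which uses glutathione to remove it from mixed disulfides on proteins and can itself bind copper. It stood at 12.3, 15.3 and 22.1 CPM in copper and at 11.99, 11.9 and 15.7 CPM in control. Replicate 3 was the highest in both groups, and the groups overlapped. For GLRX the log2 fold change was 0.33 (SE 0.23, 95% interval -0.20 to 0.86; adjusted p by edgeR 1.00). GLRX thus had the second-largest estimate of the 10, with the order of replicates opposite to that of GCLM.

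The other 3 genes belong to the turnover of glutathione and of its gamma-glutamyl group. GGCT (Entrez 79017; chromosome 7, 30496621 to 30504841, minus strand) encodes a cyclotransferase that releases 5-oxoproline from gamma-glutamyl amino acids. It stood at 42.6, 44.1 and 47.1 CPM in copper and at 42.5, 35.7 and 44.6 CPM in control, and the groups overlapped. Its log2 fold change was 0.12 (SE 0.11, 95% interval -0.14 to 0.39; adjusted p by edgeR 1.00).

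CHAC2 (Entrez 494143; chromosome 2, 53767783 to 53775196, plus strand) encodes a slow cyclotransferase that degrades glutathione. It stood at 7.50, 6.39 and 2.91 CPM in copper and at 5.79, 5.49 and 3.20 CPM in control. Replicate 3 was the lowest library in both groups, with 54 counts in copper and 61 in control. The log2 fold change was 0.20 (SE 0.36, 95% interval -0.65 to 1.05; adjusted p by edgeR 1.00), and this interval holds both a rise and a fall by a large part of the level.

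OPLAH (Entrez 26873; chromosome 8, 144051266 to 144060692, minus strand) encodes 5-oxoprolinase, which turns 5-oxoproline back into glutamate. It was near the limit of detection, with 16 to 21 counts a library in copper and 17 to 29 in control. These were 1.28, 1.12 and 0.863 CPM in copper and 0.684, 1.42 and 0.891 CPM in control. The log2 fold change was 0.12 (SE 0.31, 95% interval -0.61 to 0.85; adjusted p by edgeR 1.00), so neither a difference nor its absence could be told at this depth.

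The 10 genes fell into different patterns over the copper libraries. In 5 of them, SLC7A11, GCLC, GCLM, GSR and CHAC2, copper replicates 1 and 2 were both above the other 4 libraries, an order that 13.1% of all tested genes had. In 4, SLC3A2, GSS, GGCT and GLRX, copper replicate 3 was the highest copper library, as in 44.3% of all tested genes. Within replicate number 1 the difference between copper and control was largest for OPLAH at 0.90 on the log2 scale, GCLM at 0.69, SLC7A11 at 0.49 and GSR at 0.44. Within number 2, GCLM was higher by 0.56, SLC7A11 by 0.44, GLRX by 0.37, GSR by 0.33 and GCLC by 0.31, while OPLAH differed by -0.34. Within number 3, GLRX was higher by 0.50 and GSS by 0.34, and SLC7A11 differed by -0.44. The median of the 10 was 0.39, 0.30 and 0.05 in numbers 1, 2 and 3, against 0.0018, 0.0066 and 0.0019 for all tested genes. Copper was above control in all 3 numbers for 7 of the 10, against 17.7% of all tested genes. Some of these differences were close to 0. They were 0.0023 for GCLM and 0.0165 for GCLC in number 3, 0.0033 for GGCT in number 1 and 0.0122 for SLC3A2 in number 2. The direction of the 10 was in view when they were chosen, so these medians and shares are a description only.

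**Figure D2:**
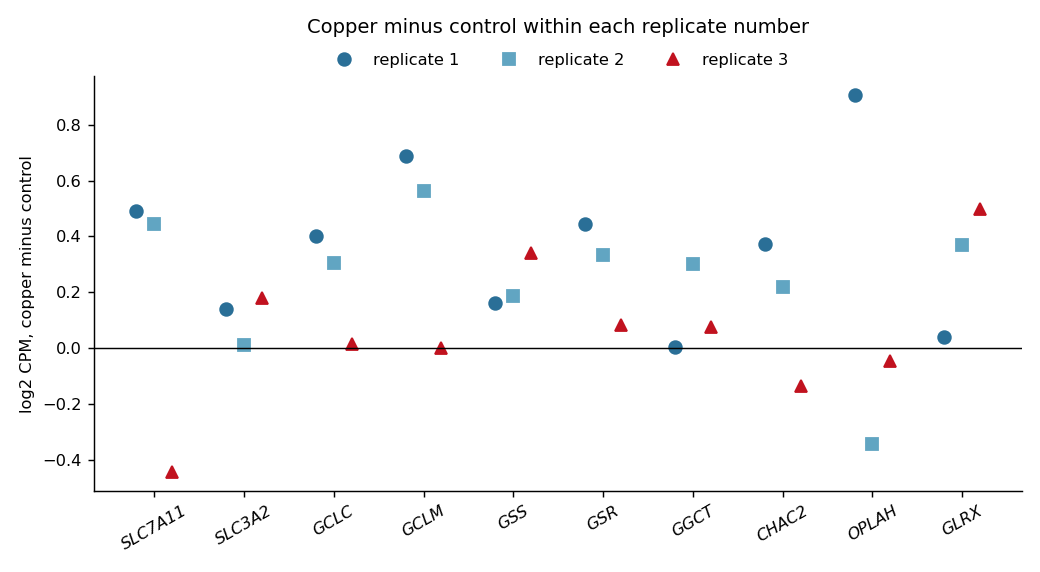
Difference in log2 CPM between the copper and the control library of the same replicate number (vertical axis) for each of the 10 genes. Replicates 1 and 2 (blue) lie above 0 for every gene but OPLAH, while replicate 3 (red) runs from -0.44 for SLC7A11 to 0.50 for GLRX.

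The spread came mainly from the copper side. GCLM had an SD of 58.7 CPM among the copper libraries against 9.23 CPM among the controls, and SLC7A11 one of 30.6 against 6.76 CPM. Of the 10 genes, 8 had a larger SD in copper, as did 74.5% of all tested genes. Replicate 3 differed from the mean of replicates 1 and 2 in copper by -0.78 for SLC7A11, -0.74 for GCLM, -0.35 for GCLC and -0.33 for GSR on the log2 scale. In control the same differences were 0.13, -0.11, -0.01 and -0.02. CHAC2 was low in replicate 3 of both groups, by -1.25 in copper and -0.82 in control, and GLRX was high in both, by 0.69 and 0.39.

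Gene length moved with replicate 3. In copper, the shortest 25% of tested genes (exons up to 2381 bases) had a median difference of 0.26 between replicate 3 and the mean of replicates 1 and 2, and the longest 25% (from 5754 bases) one of -0.30. In control these were 0.07 and -0.05. SLC7A11 (9645 bases) and GCLC (6377 bases) are in the longest of 4 such classes, GCLM (4903 bases) and OPLAH (4031 bases) in the class below it, and GSR, GSS and SLC3A2 in the next. GGCT, GLRX and CHAC2 are in the shortest, where CHAC2 went against the median of its class in both groups. The part of length in the difference between copper and control was not tested.

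**Figure D3:**
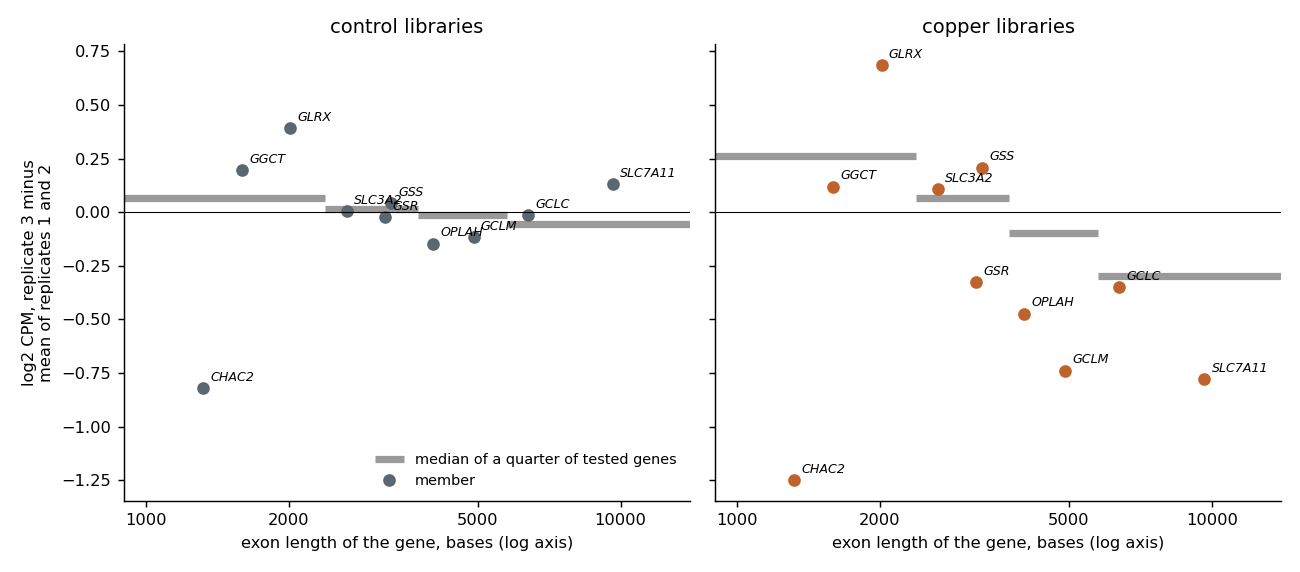
Difference in log2 CPM between replicate 3 and the mean of replicates 1 and 2 (vertical axis) against exon length (horizontal log axis) for the 10 genes, in control (left) and copper (right). Grey bars are the medians of the 4 length classes of all tested genes, cut at the ends of the axis. In copper, SLC7A11 and GCLM lie at -0.78 and -0.74, below the bars of their classes at -0.30 and -0.10.

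Without replicate 3 in both groups, 2 of the 10 genes passed the test. Leaving out replicate 1 or replicate 2 in both groups instead gave 0 calls among the 10. The fit on replicates 1 and 2 alone called GCLM (log2 fold change 0.63, SE 0.08, a fold of 1.55, adjusted p by edgeR 0.00654) and SLC7A11 (0.47, SE 0.08, a fold of 1.38, adjusted p 0.0236). In that fit 0.501% of all tested genes were called higher and 0.355% lower. GCLC (0.35, SE 0.08) and GSR (0.39, SE 0.08) had adjusted p-values of 0.0590 and 0.0699, and SLC3A2 had a log2 fold change of 0.08 with an adjusted p of 0.659. With the replicate block in these 4 libraries, GCLM, SLC7A11, GCLC, GSR and GSS were called, all higher, where 2.88% of all tested genes were called higher and 4.16% lower. With copper replicate 3 alone left out, 1 of the 10 was called, GCLM (0.67, adjusted p by edgeR 0.0446), against 0.115% of all tested genes. Replicate 3 has 1 library in each group, and whether its difference between copper and control departs from that of replicates 1 and 2 was not tested.

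**Figure D4:**
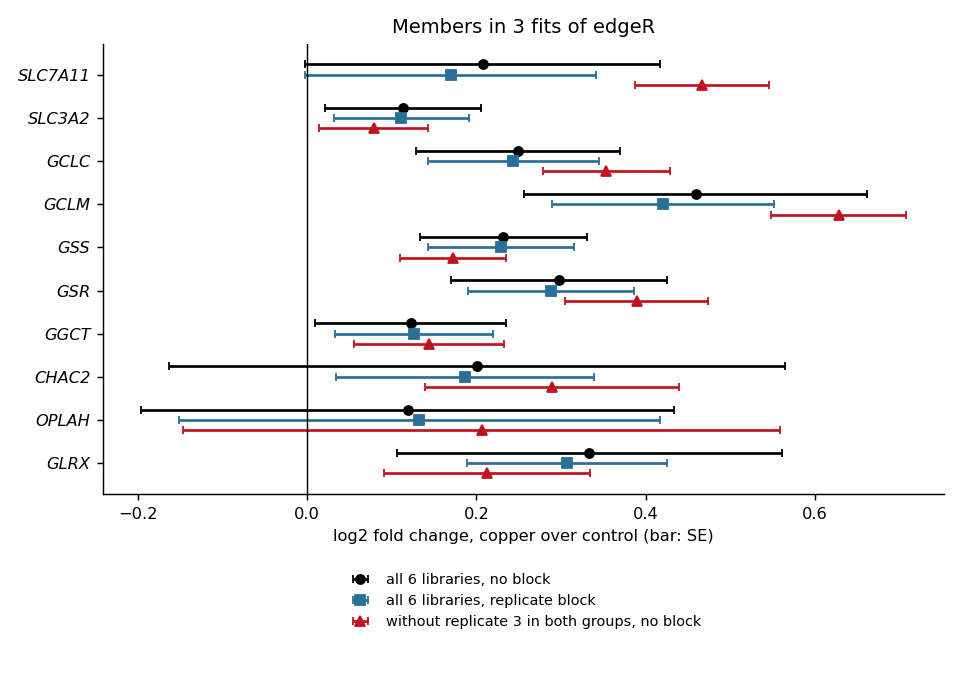
Log2 fold change of copper over control (horizontal axis, bars are SE) for the 10 genes in the fit of all 6 libraries (black), with the replicate block (blue) and without replicate 3 in both groups (red). GCLM moves from 0.46 to 0.63 and SLC7A11 from 0.21 to 0.47 without replicate 3, while SLC3A2, GSS and GLRX move down.

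Levels of different genes were compared as CPM per kilobase of exon (RPKM), since a longer gene collects more counts. In control, SLC3A2 was the highest at 150 ± 1.60 RPKM (SD, n = 3). GCLM followed at 30.5 ± 1.88, GSS at 25.7 ± 0.891, GGCT at 25.7 ± 2.91 and GSR at 19.1 ± 0.891 RPKM. SLC7A11 was at 9.41 ± 0.701, GLRX at 6.53 ± 1.07, GCLC at 4.64 ± 0.112, CHAC2 at 3.65 ± 1.08 and OPLAH at 0.248 ± 0.0944 RPKM. Among neighbours in this order only GSS and GGCT overlapped in their control libraries. In copper the order of the means was the same, from SLC3A2 (162 ± 11.2 RPKM) and GCLM (41.9 ± 11.96 RPKM) to OPLAH (0.270 ± 0.0522 RPKM). There the libraries overlapped between GCLM and GSS (30.2 ± 2.64), GSS and GGCT (27.9 ± 1.44), and GGCT and GSR (23.5 ± 3.66 RPKM). SLC7A11 (10.9 ± 3.18) overlapped with GLRX (8.22 ± 2.49), and GCLC (5.53 ± 0.743) with CHAC2 (4.24 ± 1.81 RPKM). Per length, SLC7A11 stood at 0.0810, 0.0786 and 0.0432 of SLC3A2 in copper and at 0.0636, 0.0583 and 0.0665 in control. The light chain was thus far less abundant in RNA than the heavy chain in every library, and the groups overlapped (exact two-sided permutation p of 0.90 on the ratio of counts). Exon length covers all basic transcripts of a gene, so a level per length is too low where the cells use a short transcript.

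Around the 10 genes, 5 lists of related genes were counted in the same fit, and edgeR called 0 of their members without the block, where DESeq2 called 5 of them and 0.221% of all tested genes. An unadjusted p under 0.05 was reached by 6 genes around NRF2, 1 gene that uses glutathione and 0 of the other 3 lists, against 3.52% of all tested genes. List medians are to be read beside 0.0052 for all tested genes. The lists were chosen with earlier results of these data known, so their counts are a description only. Of 17 tested genes that use glutathione, 11 were higher and 6 lower, with a median log2 fold change of 0.07. With the replicate block, which called 0.17% of all tested genes, 1 of the 17 was called, MGST1, a membrane-bound glutathione transferase and peroxidase. MGST1 (Entrez 4257; chromosome 12, 16347142 to 16364410) stood at 205, 233 and 256 CPM in copper and at 143, 155 and 148 CPM in control, and the groups did not overlap. The estimate was 0.64 on the log2 scale (SE 0.11; adjusted p by edgeR 0.359 without and 0.0478 with the block).

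Of 13 tested genes around NRF2, 11 were higher and 2 lower, with a median of 0.23. In 7 of the 13 every copper library lay above every control, against 5.45% of all tested genes. This list too was chosen with earlier results known, so its counts and medians are a description only. By replicate number the median difference of the 13 was 0.21, 0.41 and 0.41. That of the 10 cystine and glutathione genes was 0.39, 0.30 and 0.05. Not every gene of the list followed its median, and TXNRD1 differed by 0.41, 0.41 and -0.23. The block gave calls for 3, NQO1, HMOX1 and AKR1C1, all higher, where it called 0.17% of all tested genes. NQO1, a quinone reductase, had 381, 326 and 325 CPM in copper against 230, 204 and 210 CPM in control, a log2 fold change of 0.68 (SE 0.11; adjusted p by edgeR 0.241 without and 0.0232 with the block). Unlike GCLM and SLC7A11, NQO1 was higher in all 3 replicate numbers by a similar amount, 0.73, 0.68 and 0.63. HMOX1, which degrades heme, was higher by 1.29, 0.96 and 1.04 in the 3 numbers, with an adjusted p by edgeR of 0.241 without and 0.00764 with the block. AKR1C1, an aldo-keto reductase with near-identical paralogs that make its counts uncertain, was higher by 1.85, 2.00 and 1.47, with 0.804 without and 0.00548 with the block. NRF2 itself, encoded by NFE2L2, had a log2 fold change of -0.01 (SE 0.11), and its inhibitor KEAP1 one of 0.05 (SE 0.11).

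The lists for amino acid supply, breakdown and ATF4 had no call in either fit. Of 13 tested supply genes 3 were higher and 10 lower, with a median of -0.10. The smallest p-values were those of the glutamine transporter SLC38A2 (-0.21, SE 0.10) and the aspartate aminotransferase GOT1 (0.11, SE 0.09). Of 9 tested genes for breakdown and export of glutathione 3 were higher and 6 lower, with a median of -0.02. LAP3, a leucine aminopeptidase, had 0.08 (SE 0.08), the exporter ABCC4 had -0.18 (SE 0.21), and CHAC1, the stress-induced counterpart of CHAC2, had -0.10 (SE 0.19). Of 9 tested genes around ATF4 6 were higher and 3 lower, with a median of 0.02. ATF4 had 0.01 (SE 0.10), the asparagine synthetase gene ASNS -0.44 (SE 0.25) and the stress gene SESN2 0.21 (SE 0.15). SLC7A11, SLC3A2 and CHAC1 are known ATF4 targets as well, and the 3 had estimates between -0.10 and 0.21. The adjusted p by edgeR was 1.00 for each gene of this paragraph.

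**Figure D5:**
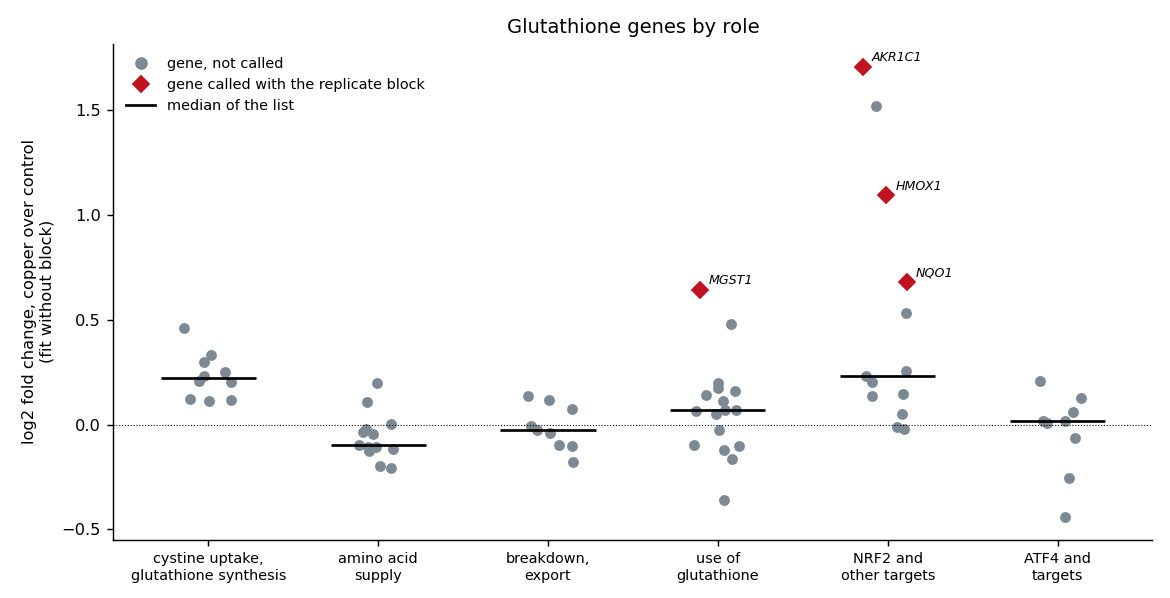
Log2 fold change of copper over control (vertical axis, fit without the block) for each tested gene of the 10 and of the 5 related lists (horizontal axis). Black lines are list medians and red diamonds are the 4 genes called with the replicate block, MGST1, NQO1, HMOX1 and AKR1C1. No gene of the cystine and glutathione synthesis group is a diamond.

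The genes whose values over the 6 libraries were most like those of SLC7A11 and GCLM were ranked by the root-mean-square difference in log2 CPM after each gene was centred on its own mean. The ranking covered 10290 genes with at least 5 CPM on average, whose median difference from SLC7A11 was 0.30. Closest to SLC7A11 were ZNF33B (0.083), TXNRD1 (0.088), DPY19L2 (0.089), MIPOL1 (0.090) and LINC00472 (0.096). TXNRD1, a gene of the NRF2 list, encodes thioredoxin reductase 1, which works in the thiol system parallel to glutathione. It stood at 1282, 1220 and 754 CPM in copper and at 968, 916 and 886 CPM in control, again high in copper replicates 1 and 2 and lowest in copper replicate 3. Closest to GCLM were HDAC9 (0.082), LINC02861 (0.10), ANKEF1 (0.11), PTCHD4 (0.11) and PSEN2 (0.12). GCLM and SLC7A11 differed from each other by 0.15, which placed SLC7A11 at rank 16 for GCLM and GCLM at rank 67 for SLC7A11, and GSR stood at rank 18 for GCLM. SLC3A2 was at rank 5190 for SLC7A11, its partner in the exchanger, with a difference of 0.301. A gene that did not vary over the libraries would differ from SLC7A11 by 0.285. The measure takes all 6 libraries alike, replicate 3 included, and the part of replicate 3 in these ranks was not tested.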

How the data were processed

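RNA from 6 cultures was sequenced from directional NEBNext libraries, per the labels' protocols. The authors deposited raw gene counts with symbols and coordinates. STAR, FastQC, edgeR and GRCh38 are named in the submitters' processing notes, and the counting program and its settings are not given in the sources used here. Starts count from 0 in the table, and 1 was added. The 5 rows without a symbol (0.000814% of counts) were left out.

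The test used edgeR 4.0.16 under R 4.3.3, a quasi-likelihood test (robust) of group alone, with TMM scaling, filterByExpr (minimum count 10, minimum total 15), a prior count of 2 and Benjamini-Hochberg adjustment over all tested genes. CPM used TMM library sizes. Each SE is the log2 fold change over the square root of F. Exon lengths were unions over the GENCODE 29 basic set. The scripts were tested on simulated counts. A chi-square test of each pair of same-group libraries gave at least 5.35 per degree of freedom, above sampling noise, so no library was counted as a second deposit of another. Whether the cultures were separate is not given in the sources used here.

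The labels give the replicate numbers and name no day, litter or batch behind them. Deviations from the group means correlated between libraries of the same number at 0.46, 0.40 and 0.65, above the minimum of 0.1. Copper replicate 1 also correlated with control replicate 2 at 0.32, and copper replicate 2 with control replicate 1 at 0.27. Mismatched pairs that held replicate 3 lay between -0.56 and -0.45. For replicate 2 minus replicate 1, the copper and control values had a correlation of 0.15. The pairing of numbers 1 and 2 therefore rests on a weak correlation. The block is given where it changes a call. Alternatives were scaling by RLE, by the upper quartile or by total counts, 2 filters, DESeq2 1.42.0, limma-voom (limma 3.58.1), a prior count of 0.125, the block, and libraries or replicate numbers left out.

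The 10 genes, the lists and the alternatives were chosen with earlier results of these data known. The text names the 10 genes, list genes called with or without the block or else the 2 of smallest p, NFE2L2, KEAP1, CHAC1, ATF4, MT2A, MT1X, and the 5 genes most like SLC7A11 and GCLM. One gene of the NRF2 list was not analysed here.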

Additional observations from a re-analysis of the deposited data

How the results depend on the processing

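All 10 genes kept a positive log2 fold change and stayed uncalled under the 3 other scalings, both filters, DESeq2, limma-voom, the smaller prior count and the replicate block, with a median from 0.20 to 0.25. The block changed no call among the 10. The calls depended on replicate 3. The count of the 10 genes called was 1 without copper replicate 3 and 0 without each of the other libraries. It was 2 without replicate 3 in both groups, and 5 when the block was added. Without replicate 1 or replicate 2 in both groups it was 0, with and without the block. The count over all genes was 0 in the main analysis, 12 with no filter, 27 with DESeq2 and 22 with the replicate block. It ranged from 0 to 15 when single libraries were left out, with 15 without copper replicate 3, and was 111 without replicate 3 in both groups. With the block and a pair left out it was 74, 77 and 912 without replicates 1, 2 and 3. For the 5 related lists together the count was 0 in the main analysis, 1 with no filter, 5 with DESeq2 and 4 with the block. It ranged from 0 to 3 with single libraries left out, and was 8 without replicate 3 in both groups. With the block and a pair left out it was 5, 5 and 11. The cause of these shifts was not tested.

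Some estimates changed sign, among them SLC7A11 (0.21 in the main analysis), CHAC2 (0.20), OPLAH (0.12) and ABCC4 (-0.18). SLC7A11 was at -0.0011 with the block and without replicate 1 in both groups, and OPLAH at -0.198 there and at -0.209 without the block. With single libraries left out, values ranged from 0.018 to 0.42 for SLC7A11, from 0.26 to 0.67 for GCLM, from -0.0616 to 0.504 for CHAC2 and from -0.0920 to 0.425 for OPLAH. CHAC2 turned negative without copper replicate 1 (-0.0616) and without control replicate 3 (-0.0158), and OPLAH without copper replicate 1 (-0.0022) and control replicate 1 (-0.0920). NFE2L2 was at 0.0076 with upper-quartile scaling, 0.0139 with total counts, and 0.0098 and 0.0099 without replicate 3 in both groups, without and with the block. KEAP1 was at -0.0184 and -0.0178 there and ATF4 at -0.0050 and -0.0040, while ATF4 was at -0.0136 with no filter. CHAC1 was at 0.0012 with the block and without replicate 1. With single libraries left out the ranges were -0.0718 to 0.0679 for NFE2L2, -0.0104 to 0.110 for KEAP1, -0.0450 to 0.0639 for ATF4, -0.246 to 0.0438 for CHAC1 and -0.323 to 0.0367 for ABCC4. The causes were not tested. Counts of 16 to 29 a library limit OPLAH, and 54 to 144 limit CHAC2.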

Other observations

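Several enzymes that make or use amino acids related to glutathione, or that break glutathione down, were at or near 0 counts in both groups. They were chosen after their values were seen. GLUL, which makes glutamine from glutamate, had 1, 0 and 0 counts in copper replicates 1, 2 and 3 and 3, 6 and 2 in control. PHGDH, which opens the route from glucose to serine and glycine, had 2, 3 and 2 counts in copper and 2, 3 and 1 in control. The gamma-glutamyl transferase gene GGT5 had 1, 2 and 2 counts in copper and 0, 0 and 1 in control, and DPEP1, a dipeptidase of extracellular glutathione breakdown, had at most 1 count a library. Among genes of the transsulfuration route from methionine to cysteine, CTH was at 10.1, 11.4 and 10.5 CPM in copper and 10.7, 11.9 and 11.9 CPM in control. CBS, which acts before CTH, was at 1.77, 2.08 and 2.05 CPM in copper and 1.73, 2.01 and 2.73 CPM in control. Both overlapped between groups. CBS was counted at chromosome 21, 6444869 to 6468055. How reads matching several places were counted is not given in the sources used here, which leaves the level of CBS uncertain. GLUL, PHGDH, GGT5 and DPEP1 did not pass the filter and were not tested. Most genes of the lists they came from did pass. These were 13 of 14 for supply, 9 of 12 for breakdown and export and 9 of 10 for ATF4.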
